A study of Mus musculus with 6 samples.

Results

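The 9 genes described here are known as markers of the cortical thymic epithelium, and were read in libraries of sorted medullary cells. Psmb11, Prss16, Ly75, Tbata, Ctsl, Cxcl12, Dll4, Pax1 and Foxn1 were taken by name as known cortical markers, by a rule with no threshold on measured values, and all 9 were among the 15643 genes of the deposited table. The cells were mature medullary thymic epithelial cells, labelled mTEChi, from NOD mice aged 4.5 weeks. The 3 Aire +/+ libraries carry the numbers 745, 750 and 753, and the 3 Aire -/- libraries the numbers 746, 748 and 749, with the Aire genotype taken from the labels throughout. NOD is an autoimmunity-prone strain, and both genotypes share it. MARS-seq, the method used, tags each transcript molecule with a unique molecular identifier (UMI) and reads it close to the 3′ end.

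The thymus has an outer cortex and an inner medulla, each with its own epithelium. Cortical epithelial cells commit incoming progenitors to the T cell fate through Notch ligands, hold them with chemokines, and carry out positive selection on peptides made by proteases of their own. Medullary cells then display proteins of other tissues, many of them under the control of the transcriptional regulator Aire, so that self-reactive T cells are removed. Both lineages depend on the transcription factor Foxn1, so the 9 genes differ in how strictly they mark the cortex: Psmb11 and Prss16 are close to restricted to it, whereas Foxn1 and Pax1 are also known from medullary cells.

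Library totals ran from 2736932 to 2887321 UMIs in Aire +/+ and from 1014581 to 1960802 UMIs in Aire -/-. Aire itself did not check the labels: its 3′ tags were higher in the libraries labelled Aire -/- (edgeR log2 fold change 1.10, SE 0.14, adjusted p = 7.76e-05), and the deleted part of the allele is not given in the sources used here. Directions below therefore rest on the labels. Libraries 746 and 753 stood apart in Gapdh, with 28 and 90 UMIs against 2245 to 4166 in the other 4. Libraries sharing a genotype varied beyond counting error (chi-square per degree of freedom 3.02 to 6.83). The labels do not say that each number is a separate animal, so p-values measure only the spread between these libraries. In sorted bulk samples, more cells of a type and more RNA per cell cannot be told apart.

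The start sites of these genes were searched for GACGC, the core of the motif that Foxn1 is known to bind, because Foxn1 drives several of the other 8 genes in thymic epithelium. RefSeq promoter sequences (build GRCm38.p6) were at hand for 8 of the 9 genes, and GACGC or its reverse complement GCGTC lay within 250 bases before the start of 3 of them, Psmb11, Cxcl12 and Pax1. For Psmb11, Pax1 and Ctsl the RefSeq start used lies inside the annotated gene. Their spans begin upstream at 54621433, 147361925 and, on the minus strand, 64370890. Those upstream starts were not searched. The starts used for Ly75 and Tbata also lie inside the gene, with its annotated beginning within the window searched. The same holds for Kitl, Krt8, Krt18 and Gper1, other genes known from the cortical epithelium. Over all 32851 RefSeq promoters of that length the share was 22.6%, and 5.86% held 2 or more matches, as Psmb11 did. No match was found in these windows for Ly75, Tbata, Ctsl, Dll4 and Foxn1. The stretches that hold the matches are shown with the motif in capitals, each 30 bases long and read 5′ to 3′ on the strand of the gene.
Psmb11, 239 bases before the start (chr14:54625060-54625089, plus strand): gctgacaggtgGCGTCttcagagtgtagga
Psmb11, 62 bases before the start (chr14:54625236-54625265, plus strand): agcttctccacaGCGTCctcctcctcctcc
Cxcl12, 62 bases before the start (chr6:117168461-117168490, plus strand): cgcaggggatgcGCGTCagagaccccagcc
Pax1, 86 bases before the start (chr2:147364896-147364925, plus strand): ggcggggaggggGACGCcaggctcggtgac
Ccl25, a chemokine of the same epithelium and no member of the 9, 56 bases before the start (chr8:4325142-4325171, plus strand): ctttgaagaagcGACGCtcattggttggca
Among 8 other cortical genes with a RefSeq promoter, 4 held the motif, Ccl25, Kitl, Enpep and Syngr1, and Ccl25 is shown because it was called higher. Psmb11, Cxcl12 and Ccl25 held the motif and were called higher, Pax1, Enpep and Syngr1 held it and were not called, and Kitl carried no test. Ly75, Tbata, Dll4, Krt8 and Krt18 were called higher with no match in their windows. A relation of motif and call was not tested. A second RefSeq start of Ccl25 had no match in its window (chr8:4349338-4349587).
The whole upstream window of Cxcl12, a member whose transcripts rose, shows the setting of its single match (chr6:117168285-117168534, plus strand): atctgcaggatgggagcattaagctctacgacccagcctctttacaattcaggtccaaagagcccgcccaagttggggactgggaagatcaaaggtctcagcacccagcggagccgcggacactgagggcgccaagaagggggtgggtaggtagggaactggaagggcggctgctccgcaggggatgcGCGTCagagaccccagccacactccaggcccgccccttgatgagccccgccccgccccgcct
A match is a description of these letters and not a shown binding site.

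Transcripts of 6 of the 9 cortical genes had higher counts for their depth in Aire -/- libraries, with log2 fold changes of 0.84 to 1.58. Psmb11, Prss16, Cxcl12, Tbata, Ly75 and Dll4 rose, and Foxn1 and Pax1 were not called. Ctsl was below the count filter and carried no test. No member was called lower by edgeR or by DESeq2, and since all 8 tested fold changes were above 0, none was lower at an unadjusted p of 0.05 either. Among all 11956 genes tested, 8.59% were called higher and 12.1% lower (edgeR quasi-likelihood test, adjusted p up to 0.05). The median log2 fold change of the 8 tested members was 1.02, against -0.02 over all tested genes. All 6 called members had every Aire -/- library above every Aire +/+ library, a pattern that 16.3% of tested genes showed, and 36.5% of tested genes separated in 1 direction or the other. The authors' deposited table selected 5 of the 9 (Psmb11, Prss16, Ly75, Tbata and Cxcl12) as higher in Aire -/-, where it selected 2.28% of its genes in that direction. Dll4 also passed an adjusted p of 0.05 in that deposited table, as 5.31% of its genes did in that direction. All calls higher numbered 1027 against 1450 lower (41.5% of calls), and scaling by library totals alone gave 567 against 2048 (21.7%) and shifted the median of all genes to -0.22.

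**Figure D1:**
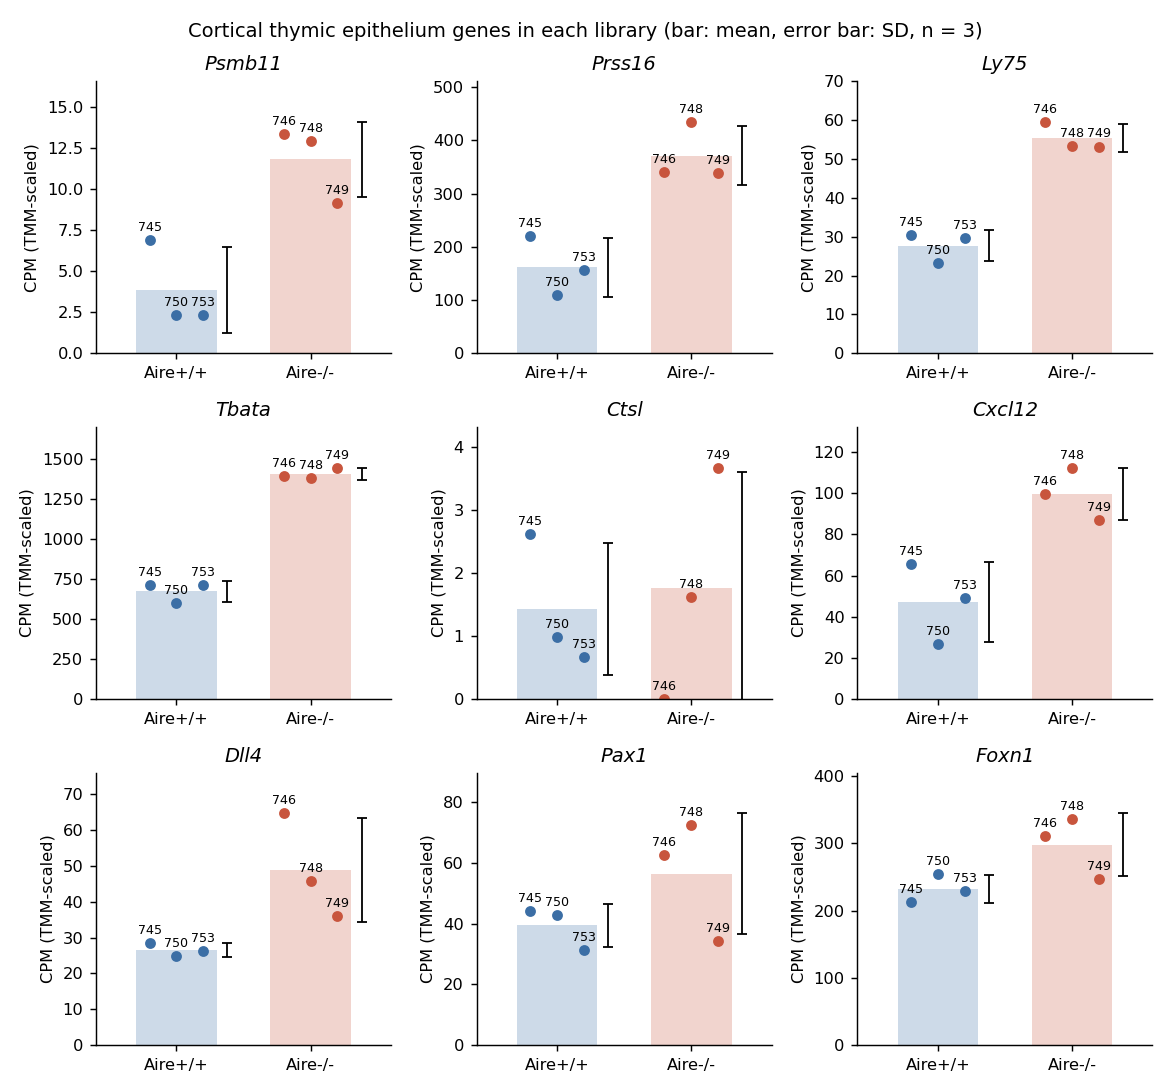
Each panel shows 1 gene, with the level in CPM (UMI counts scaled to library size with TMM factors, vertical axis from 0) of each library as a labelled point, the genotype mean as a bar and the SD over 3 libraries as the error bar to its right. The genotypes separate for Psmb11, Prss16, Ly75, Tbata, Cxcl12 and Dll4, and overlap for Ctsl, Pax1 and Foxn1.

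The enzymes that shape the cortical peptide repertoire were led by Psmb11, the catalytic subunit that defines the thymoproteasome and a hallmark of cortical epithelial cells. Psmb11 (chromosome 14, positions 54621433 to 54629556, mm10, plus strand) counted 21, 7 and 7 UMIs in Aire +/+ libraries 745, 750 and 753, and 13, 24 and 15 UMIs in Aire -/- libraries 746, 748 and 749. As CPM (UMI counts scaled to library size with TMM factors), that was 6.89, 2.31 and 2.35 against 13.3, 12.9 and 9.17. Library 745 was the highest of its genotype but stayed below all 3 Aire -/- libraries. Psmb11 went from 3.85 ± 2.63 to 11.8 ± 2.30 CPM (SD, n = 3 each), and edgeR put the log2 fold change at 1.58 (SE 0.43, 95% interval 0.65 to 2.52, adjusted p = 0.0196). At these counts the call was lost without 750, 753 or 748 (adjusted p = 0.079, 0.0906 and 0.0772, with log2 fold changes of 1.32, 1.33 and 1.49), after thinning (1.31, adjusted p = 0.107) and without both 746 and 753 (1.26, adjusted p = 0.147), and the log2 fold change was 2.29 without 745. In 1 of its 2 annotated coding transcripts, the last 300 nt hold a stretch that matches at least 391 other genes. The search capped the matches it kept, and those kept had 90% to 96.0% identity over 116 to 165 nt. Reads from that stretch may therefore not be unique to Psmb11.

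Prss16 encodes the thymus-specific serine protease, which supports the selection of CD4 T cells. It lies on chromosome 13 (positions 22002173 to 22009742, minus strand). Its level was 220, 109 and 156 CPM in Aire +/+ libraries 745, 750 and 753 and 341, 435 and 339 CPM in Aire -/- libraries 746, 748 and 749. The Aire +/+ libraries differed by 2.02 times among themselves, yet none reached the lowest Aire -/- library. The means were 162 ± 55.8 and 372 ± 55.1 CPM, and the edgeR log2 fold change was 1.20 (SE 0.21, adjusted p = 0.00124). The authors' deposited table gives -1.21 for Aire +/+ over Aire -/- with an adjusted p of 1.03e-06.

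Ctsl encodes cathepsin L, the lysosomal protease that trims invariant chain and makes class II peptides in the cortex. The gene lies on chromosome 13 (positions 64359337 to 64370890, minus strand). Aire +/+ libraries held 8, 3 and 2 UMIs of it, and Aire -/- libraries 746, 748 and 749 held 0, 3 and 6, so its libraries were near the floor of 3 UMIs and overlapped. The pooled ratio of Aire -/- to Aire +/+ was 1.40, with an exact Clopper-Pearson 95% counting interval of 0.529 to 3.55, and a difference was not detectable at this depth. In 1 of its 5 coding transcripts the last 300 nt match 5 other genes at 90% to 91.3% identity.

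The protease families around these members were mostly not called. None of the 6 catalytic proteasome subunits of all cells or of the immunoproteasome (Psmb5 to Psmb10 in the list) was called, with a median log2 fold change of 0.04. Of 10 tested lysosomal proteases and cystatins 1 was higher and 0 lower, with a median of 0.32. Ctsk, a collagen-degrading cathepsin of that list, was below the count filter, with 14, 5 and 8 UMIs in Aire +/+ libraries and 1, 0 and 0 in Aire -/- libraries (pooled ratio 0.075, exact counting interval 0.00183 to 0.455), and was named after its values were seen. The called gene was Cstb, a cathepsin inhibitor, which went from 729 ± 68.0 to 1202 ± 218 CPM (edgeR log2 fold change 0.72, adjusted p = 0.00443). Ctsh, a lysosomal aminopeptidase, stood at 0.44 on the log2 scale (edgeR adjusted p = 0.0818) and Dpp7, a dipeptidyl peptidase, at 0.54 (edgeR adjusted p = 0.0849). Ctsh was called higher without 746 (0.60, edgeR adjusted p = 0.00959) and without both 746 and 753 (0.65, edgeR adjusted p = 0.0196).

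Ly75 encodes an endocytic receptor of the mannose receptor family that cortical epithelial cells and dendritic cells share. It lies on chromosome 2 (positions 60292103 to 60383303, minus strand). Ly75 stood at 30.5, 23.1 and 29.5 CPM in Aire +/+ libraries 745, 750 and 753 and at 59.5, 53.3 and 53.2 CPM in Aire -/- libraries 746, 748 and 749. Both groups were tight and far apart. The means were 27.7 ± 4.01 and 55.3 ± 3.65 CPM (edgeR log2 fold change 0.99, SE 0.17, adjusted p = 0.00109). Xcr1 and Clec9a, markers of dendritic cells, had no row in the counts used here. None of 7 tested markers of dendritic cells and macrophages was called by edgeR at an adjusted p of 0.05 (median log2 fold change 0.29), and Itgax, Flt3, Zbtb46, Siglech, Csf1r, Adgre1 and Lyz2 were all present. Their summed level ran from 1192 to 1337 CPM in Aire +/+ and from 1429 to 2338 CPM in Aire -/- libraries, mostly from Lyz2, a macrophage lysozyme (edgeR log2 fold change 0.52, adjusted p = 0.0631). Lyz2 was called higher by DESeq2 (adjusted p = 0.0325) and by edgeR at min.count 3, without a filter, without 746 and without 748 (adjusted p = 0.0466, 0.0389, 0.0185 and 0.0436), and not in the other 8 settings. The part of these cells in the Ly75 result was not tested.

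Tbata encodes a protein named for thymus, brain and testis and linked to the growth of thymic epithelial cells. It lies on chromosome 10 (positions 61171954 to 61188841, plus strand). Tbata was at 713, 598 and 710 CPM in Aire +/+ libraries 745, 750 and 753 and at 1394, 1378 and 1445 CPM in Aire -/- libraries 746, 748 and 749. It had the smallest adjusted p of the 8 tested members, with means of 674 ± 65.7 and 1406 ± 35.2 CPM (edgeR log2 fold change 1.06, SE 0.13, adjusted p = 7.98e-05). The Aire -/- libraries differed by only 1.05 times among themselves.

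Of the 9 genes, Cxcl12 and Dll4 encode signals that cortical cells give to thymocytes, and both were higher in the Aire -/- libraries. Cxcl12, the chemokine that keeps Cxcr4-bearing progenitors in the cortex (chromosome 6, positions 117168535 to 117181367), was at 65.6, 26.8 and 49.0 CPM in Aire +/+ libraries 745, 750 and 753 and at 99.6, 112 and 86.8 CPM in Aire -/- libraries 746, 748 and 749. The Aire +/+ libraries spanned 2.45 times, with 750 the lowest, and the Aire -/- libraries 1.30 times. The means were 47.1 ± 19.5 and 99.6 ± 12.8 CPM (edgeR log2 fold change 1.08, SE 0.25, adjusted p = 0.00799).

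Fibroblasts also make Cxcl12. Of 4 tested fibroblast markers 2 were called higher. Dcn, the matrix proteoglycan decorin, counted 147, 80 and 121 UMIs in Aire +/+ libraries 745, 750 and 753, and 294, 156 and 186 UMIs in Aire -/- libraries 746, 748 and 749 (edgeR log2 fold change 2.07, adjusted p = 0.00187). Col3a1, a fibrillar collagen, rested on library 746 with 190 UMIs, against 69 and 14 in 748 and 749 and 17 to 43 in Aire +/+ libraries (edgeR log2 fold change 3.01, adjusted p = 0.0157). Without 746 it was 1.36 (edgeR adjusted p = 0.059), and the call was also lost without 750 or 753 (edgeR adjusted p = 0.0651 and 0.0652). Without both 746 and 753 it was 1.11 (edgeR adjusted p = 0.231). The 5 fibroblast markers in the table summed to 67.4 to 105 CPM in Aire +/+ libraries and to 621, 183 and 155 CPM in 746, 748 and 749, and none was at 0 in all 3 Aire -/- libraries. In 749, Dcn gave 114 CPM of that sum, and Pdgfrb, at 26.3 CPM, was also above all Aire +/+ libraries. Col1a1, Col1a2 and Col3a1 stood at 0.611, 6.11 and 8.56 CPM in 749, none above the highest Aire +/+ library. Pdgfra, Lum and Dpt had no row in the counts used here. Library 746 did not have the highest Cxcl12, and without 746 its log2 fold change was 1.09 (edgeR adjusted p = 0.00837). Without 746, that of Dcn was 1.36 (edgeR adjusted p = 0.000475).

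Dll4, the Notch ligand that commits progenitors to the T cell lineage (chromosome 2, positions 119325784 to 119335962), was at 28.5, 24.8 and 26.2 CPM in Aire +/+ libraries 745, 750 and 753. In Aire -/- libraries 746, 748 and 749 it was at 64.7, 45.7 and 36.1 CPM. The Aire +/+ libraries were nearly equal and the Aire -/- libraries spread over 1.79 times, with 746 the highest. The means were 26.5 ± 1.90 and 48.8 ± 14.6 CPM (edgeR log2 fold change 0.84, SE 0.21, adjusted p = 0.0118). The call was lost without 750 (0.80, adjusted p = 0.0503), under scaling by library totals (0.65, adjusted p = 0.0557) and without both 746 and 753 (0.62, adjusted p = 0.108). The authors' deposited table gives Dll4 an adjusted p of 0.0119 and did not select it.

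Endothelial cells also express Dll4 and Cxcl12. Of 6 tested endothelial markers 0 were higher, 2 lower and 4 not called. Plvap, a protein of endothelial fenestrae, fell by 2.06 and Vwf, von Willebrand factor, fell by 2.13 on the log2 scale (edgeR adjusted p = 0.00252 and 0.00207). Pecam1, an adhesion molecule of endothelial junctions, was not called (edgeR log2 fold change 0.32, adjusted p = 0.566), and Cdh5, the endothelial cadherin, was not tested (24 against 14 UMIs, pooled ratio 1.18, counting interval 0.565 to 2.38). Both were named after their values were seen. The 8 markers summed to 91.2 to 122 CPM in Aire +/+ and to 33.4 to 74.6 CPM in Aire -/- libraries. The part of fibroblasts and endothelial cells in the Cxcl12 and Dll4 results was not tested.

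Of 13 tested Notch ligands, receptors and targets other than Dll4, edgeR called 0 in either direction at an adjusted p of 0.05, with a median log2 fold change of -0.08. Those with the smallest p were Notch3, a receptor (-0.87, edgeR adjusted p = 0.0736), Dtx1, a Notch target (-1.12, edgeR adjusted p = 0.0928), and Dll3, a ligand (0.84, edgeR adjusted p = 0.119). Notch3 and Dtx1 passed the threshold under scaling by library totals (adjusted p = 0.0304 and 0.0463), and Notch3 also without 746 (adjusted p = 0.017). The other genes of the Cxcl12 axis, its 2 receptors and 1 protease, gave 2 tested genes and no call.

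Foxn1, the master regulator of thymic epithelium, was not called. Foxn1 (chromosome 11, positions 78357577 to 78386558, minus strand) was at 212, 254 and 230 CPM in Aire +/+ libraries 745, 750 and 753 and at 311, 337 and 246 CPM in Aire -/- libraries 746, 748 and 749. Library 749 lay within the Aire +/+ range. The means were 232 ± 20.9 and 298 ± 46.6 CPM (edgeR log2 fold change 0.36, 95% interval 0.05 to 0.68, adjusted p = 0.102). Without 749 it was 0.49 and called (edgeR adjusted p = 0.0158).

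Pax1, a paired-box factor needed for the pharyngeal pouch from which the thymus forms, gave a similar picture. Pax1 (chromosome 2, positions 147361925 to 147393295) was at 44.3, 42.9 and 31.2 CPM in Aire +/+ libraries 745, 750 and 753 and at 62.6, 72.6 and 34.2 CPM in Aire -/- libraries 746, 748 and 749. Again 749 fell among the Aire +/+ libraries. The means were 39.5 ± 7.19 and 56.5 ± 19.9 CPM (edgeR log2 fold change 0.51, 95% interval -0.02 to 1.04, adjusted p = 0.175), and without 749 it was 0.79 and called (edgeR adjusted p = 0.00704). Of 9 other tested transcription factors of thymic epithelial development, edgeR called 0 in either direction, and 0 had an unadjusted p of 0.05 or less. Their median log2 fold change was -0.28.

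Set against Foxn1 within each library, which needs no scaling, 6 members had higher ratios in every Aire -/- library. Tbata gave 3.36, 2.36 and 3.09 UMIs per UMI of Foxn1 in Aire +/+ libraries 745, 750 and 753 and 4.48, 4.09 and 5.87 in Aire -/- libraries 746, 748 and 749. Prss16 gave 1.04, 0.43 and 0.678 against 1.10, 1.29 and 1.37, so library 745 came close to 746. Cxcl12 was closer, at 0.309 in 745 against 0.320 in 746, and Dll4 closer still, at 0.134 in 745 against 0.136 in 748. The ratios of Psmb11, Prss16, Ly75, Tbata, Cxcl12 and Dll4 to Foxn1 did not overlap between genotypes, each with a two-sided exact permutation p of 0.1, the smallest that 3 against 3 libraries can give (adjusted p = 0.117 over 7 ratios). Over the other 11955 tested genes, members included, 4.73% had ratios to Foxn1 that separated in that direction. The ratio of Pax1 to Foxn1 overlapped (exact permutation p = 0.7). These ratios were chosen after the fold changes were seen.

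Genes known from the cortical epithelium outside the 9 moved in both directions. Of 11 such genes 9 were tested, 3 were higher and 1 was lower, with a median log2 fold change of 0.39. Ccl25, a chemokine that recruits progenitors (chromosome 8, positions 4325210 to 4360020), went from 297, 230 and 294 CPM in Aire +/+ libraries 745, 750 and 753 to 456, 413 and 377 CPM in Aire -/- libraries 746, 748 and 749 (edgeR log2 fold change 0.60, SE 0.14, adjusted p = 0.0088). The Ccl25 call was lost without 750 (adjusted p = 0.0572) and under scaling by library totals (adjusted p = 0.068). Krt8, a keratin of simple epithelia and of the cortex, rose from 964 ± 47.7 to 1702 ± 318 CPM (edgeR log2 fold change 0.82, adjusted p = 0.00159). Its partner Krt18 rose by 0.40 on the log2 scale (edgeR adjusted p = 0.0441), a call that held in only 5 of 13 other settings and was lost without any 1 of 745, 750, 753, 746 and 748 (adjusted p = 0.0635, 0.134, 0.178, 0.0795 and 0.0967). Another annotated gene, Gm5200, matches the 3′ end of Krt18 at 90.7% identity.

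Il7, the cytokine that sustains early thymocytes, was the cortical gene called lower. Its counts were 52, 32 and 44 UMIs in Aire +/+ libraries 745, 750 and 753, and 3, 12 and 12 UMIs in Aire -/- libraries 746, 748 and 749. The libraries did not overlap, at 14.1 ± 3.29 against 5.62 ± 2.25 CPM (edgeR log2 fold change -1.24, SE 0.35, adjusted p = 0.0242). The call was lost without 745, 753, 746 or 748 (adjusted p = 0.097, 0.074, 0.0507 and 0.0589) and by DESeq2 (adjusted p = 0.0543). It was also lost without both 746 and 753 (-1.01, edgeR adjusted p = 0.14).

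The remaining genes of this list were not called or carried no test. Syngr1 (log2 fold change 0.55, edgeR adjusted p = 0.06), Enpep, the aminopeptidase whose antigen is used to sort cortical cells (0.39, 95% interval -0.38 to 1.15), and Cd83, which stabilises class II molecules (0.12, 95% interval -0.38 to 0.61), were above 0. Scx (-0.15) and Slc46a2, a transporter of thymic stroma (-0.33, edgeR adjusted p = 0.172), were below 0. Slc46a2 was called lower under scaling by library totals (-0.53, adjusted p = 0.0377). Scx overlaps Bop1 and Gper1 overlaps 3110082I17Rik on the opposite strand at their 3′ ends, and the strand setting is not given in the sources used here. Kitl, stem cell factor, had 26 UMIs over the Aire +/+ and 9 over the Aire -/- libraries (pooled ratio 0.70, exact counting interval 0.289 to 1.54). Gper1 had 20 UMIs over the Aire +/+ and 0 over the Aire -/- libraries, at least 3.29-fold lower with 3 UMIs over the Aire -/- group as the floor.

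**Figure D2:**
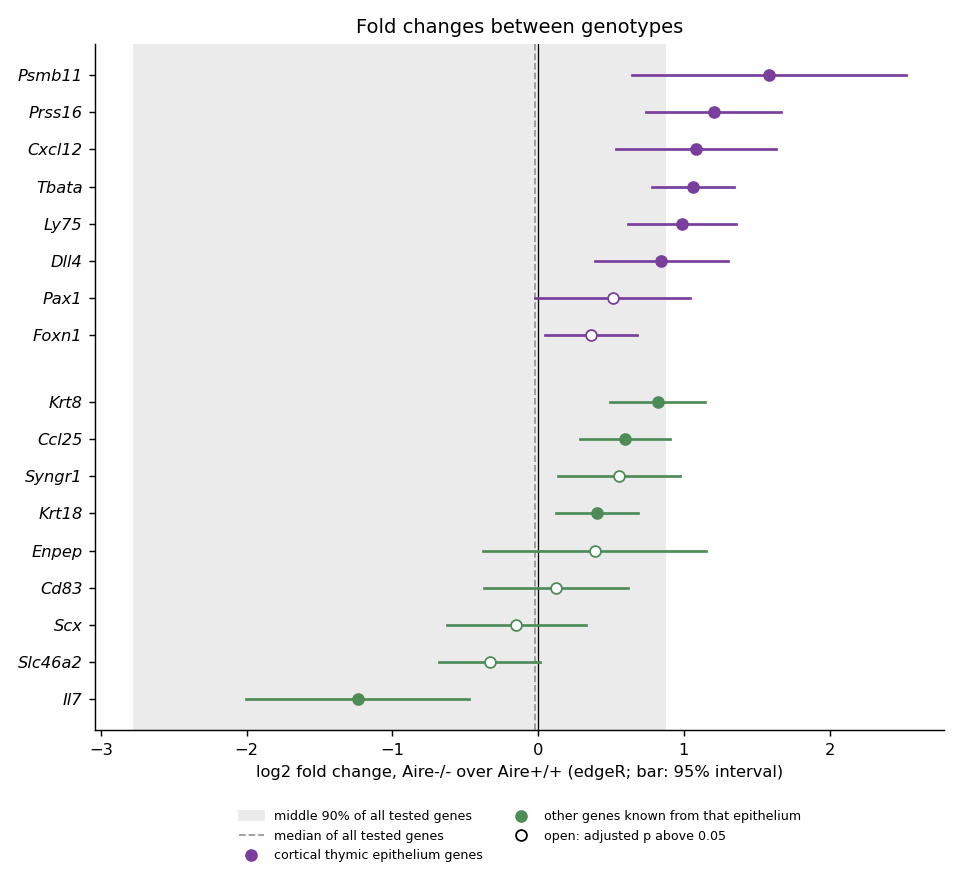
Points are edgeR log2 fold changes of Aire -/- over Aire +/+ (horizontal axis) and bars their 95% intervals, for the 8 tested cortical genes (upper block) and 9 other genes known from that epithelium (lower block). Filled points passed an adjusted p of 0.05, the grey band spans the middle 90% of all tested genes (-2.78 to 0.87), and 5 of the 8 cortical genes have estimates to the right of it.

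Markers of mature medullary cells, the labelled cell type, were abundant in all 6 libraries and also differed between genotypes. They summed to 40998 to 49311 CPM in Aire +/+ and to 72914 to 86110 CPM in Aire -/- libraries. Of 11 markers of mature medullary cells 7 were higher and 0 lower, with a median log2 fold change of 0.70. The 4 not called were Epcam (0.01), Cd40 (-0.04), Fezf2 (-0.14) and Tnfrsf11a (-0.41). Most of the sums came from Cd74, H2-Aa, H2-Ab1 and H2-Eb1 (Aire +/+ means 14478, 10772, 11921 and 6456 CPM). Cd74 and the 4 markers not called were named after their values were seen. H2-Ab1 rose by 0.98, H2-Eb1 by 0.87 and H2-Aa by 0.80 on the log2 scale (edgeR adjusted p = 0.000291, 0.000843 and 0.00175). These class II chains thus had fold changes of a size close to those of Ly75 and Dll4, and a difference between the lists was not tested. Of 5 tested markers of immature medullary cells 0 were higher and 1 was lower, Ly6a, which fell by 1.15 on the log2 scale (edgeR adjusted p = 6.79e-05). Ccl21a had no row in the counts used here.

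Thymocytes cling to cortical epithelial cells, so their transcripts were read beside the members. Of 10 tested thymocyte markers edgeR called 0, none at an unadjusted p of 0.05 or less, with a median log2 fold change of 0.31. They summed to 271, 151 and 188 CPM in Aire +/+ libraries 745, 750 and 753 and to 163, 290 and 242 CPM in Aire -/- libraries 746, 748 and 749. Within Aire +/+ the order of libraries, 745 above 753 above 750, was also that of Psmb11, Prss16, Ly75, Tbata, Cxcl12 and Dll4. Parts of it were near ties, as Psmb11 had 7 UMIs in both 750 and 753, and Tbata stood at 713 and 710 CPM in 745 and 753. Library 745 was the highest Aire +/+ library for 7 of the 8 tested members and 750 the lowest for 6, while 749 was the lowest Aire -/- library for 7. Within Aire -/- the thymocyte order, 748 above 749 above 746, was not that of any of these 6 members. For Psmb11, Prss16, Ly75, Cxcl12 and Dll4, 746 lay above 749, and for Tbata 749 lay above 746 and 746 above 748. The part of thymocyte-bearing cells in these orders was not tested. Of 3 tested B cell markers 0 were called by edgeR, and 0 had an unadjusted p of 0.05 or less, with sums of 105 to 132 CPM and 83.2 to 186 CPM.

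**Figure D3:**
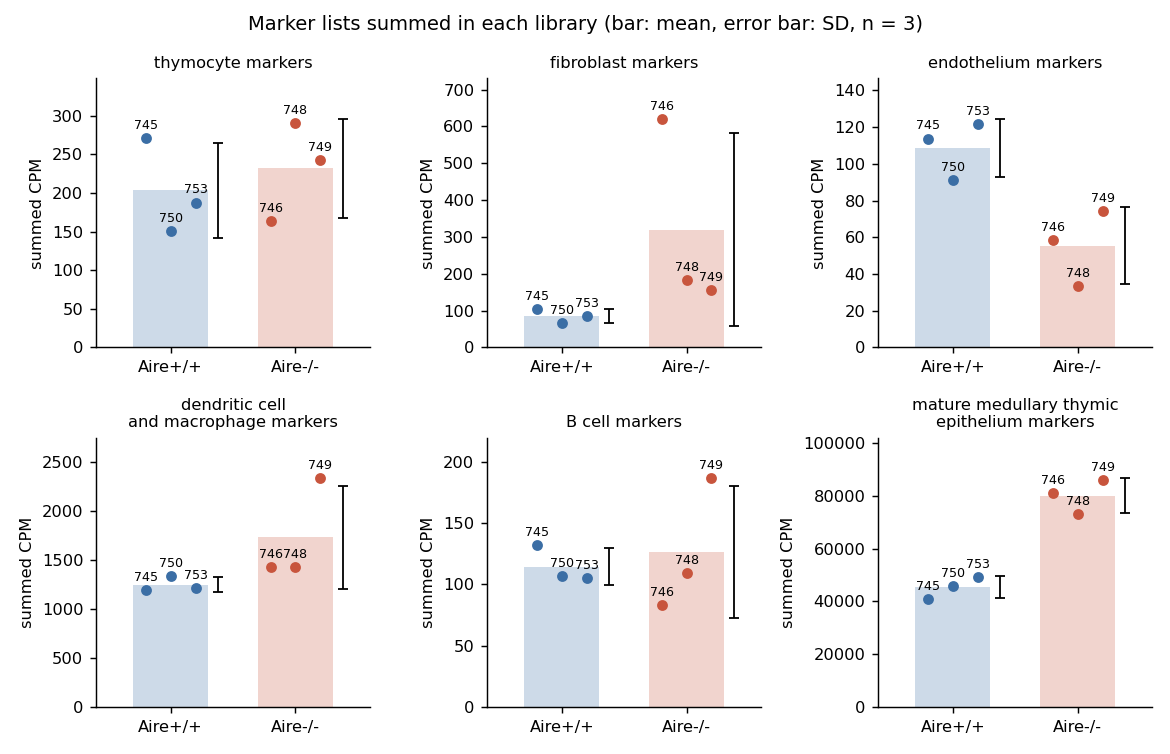
Each panel gives the summed CPM (vertical axis from 0) of 1 marker list in each library as labelled points, with the genotype mean as a bar and the SD over 3 libraries as the error bar. Sums of fibroblast, mature medullary and dendritic cell and macrophage markers are higher in all Aire -/- libraries. Sums of endothelial markers are lower, and those of thymocyte and B cell markers overlap. Dcn gave 114 of the 155 CPM of fibroblast markers in library 749, and Lyz2 gave most of the dendritic cell and macrophage sums.

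The fold changes of 4 members passed the threshold in all 13 other settings tried. Tbata ranged from 0.86 to 1.10, Prss16 from 0.98 to 1.48, Ly75 from 0.79 to 1.11 and Cxcl12 from 0.80 to 1.39 on the log2 scale. Psmb11 passed in 8 settings and Dll4 in 10, and Pax1 and Foxn1 in 1 each, that without library 749. Members called higher numbered 6 with RLE scaling (8.49% of all genes), DESeq2 (5.3%), a filter at min.count 3 (7.47%) or no filter (7.27%), and 5 under library totals (4.74%) or thinning (6.62%). Without 1 Aire +/+ library they numbered 6 without 745 (5.39% of all genes), 4 without 750 (6.1%) and 5 without 753 (5.23%). Without 1 Aire -/- library they numbered 6 without 746 (7.79%), 5 without 748 (6.25%) and 8 without 749 (8.8%). With 746 and 753 both left out, 4 were called (5.36%). No setting turned the direction of a tested member.

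**Figure D4:**
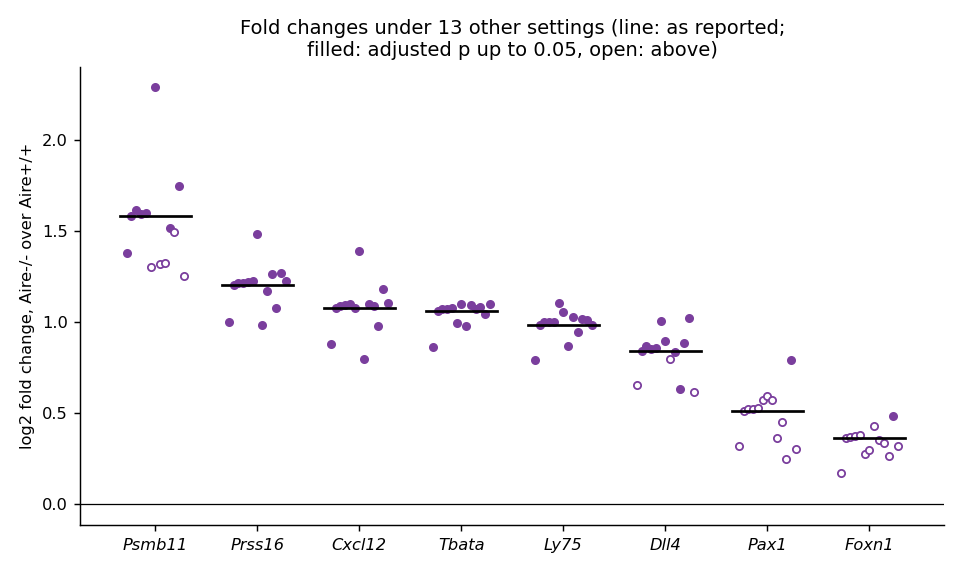
For each tested member, points are the log2 fold change (vertical axis) under 13 other settings and the line is the value reported. Filled points passed an adjusted p of 0.05. All points of Prss16, Cxcl12, Tbata and Ly75 are filled, and every point lies above 0.

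Across the 6 libraries, the tested genes whose log2 CPM followed Psmb11 most closely were C8g, Ilkap and Sft2d1, with Pearson correlations of 0.993, 0.989 and 0.989. Those most like Foxn1 were Cdkn2d, Numa1 and Helz, at 0.994, 0.993 and 0.989. None of these 6 genes was called between genotypes (edgeR adjusted p = 0.107 to 0.361). With 6 points that share depth and preparation and 11956 genes to choose from, these values are descriptions only.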

How the data were processed

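Per the submitters' processing notes, the build was mm10 and the tools included STAR 2.4.2a, HTSeq, cutadapt, bcl2fastq and DESeq2, with no roles stated. UMI counts were used as the authors deposited them, unnormalized. The deposited normalized counts, a signal equal to counts over 1 size factor a library, and the deposited regularized log2 values were not used. Fold changes on the log2 scale with p-value and adjusted p-value in the authors' table are DESeq2's, per the file headers.

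Counts were tested with edgeR 4.0.16 (R 4.3.3, quasi-likelihood), with TMM scaling, filterByExpr at min.count 10, genotype as the only term and Benjamini-Hochberg adjustment over all 11956 genes kept. Calls had an adjusted p up to 0.05. Standard errors and intervals were derived from the fitted fold change and F value. CPM are given as mean ± SD over 3 libraries. A count of 0 allows up to 3 UMIs, and counting intervals and floors cover counting error only. The fit was also run on simulated data with the same dispersion (0.0241) for every gene. Only genes at higher levels were given changes there, so that run cannot speak for genes at low counts such as Psmb11. Genes named were the 9, the list of other cortical genes, and up to 3 of each further list with the smallest p, if 0.05 or less. The rule for the 9 genes uses names alone, but the genes, lists and tests were chosen with earlier results of these data known. Alternatives were other scalings and filters, DESeq2 1.42.0, thinning, and leaving out libraries. Positions are from GENCODE M21, promoters from RefSeq, and near copies of 3′ ends from blastn 2.17.0 (at least 80 nt at 90% identity).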

Additional observations from a re-analysis of the deposited data

How the results depend on the processing

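The 6 higher calls among the 9 cortical genes stayed between 4 and 8 when single libraries were left out, at 5 under library totals and after thinning, and at 4 without 746 and 753. No member was lower in any setting. Higher calls over all genes were 567 under library totals, 613 after thinning all libraries to equal depth (with 858 lower), 652 without 746 and 753, and 618 to 1156 when single libraries were left out, with the lowest counts without 753 (618) and 745 (632). Thinning leaves fewer UMIs to test; for the other settings the cause was not tested. Over 33 named genes, 381 of 426 values kept their call, 28 lost it, 14 gained it and 3 changed sign without being called: Cd83 (-0.090 under library totals, and -0.26 to 0.34 when single libraries were left out, lowest without 749) and Enpep (-0.020 to 0.69, lowest without 748). No paired analysis was possible because library numbers differ between genotypes. Depth limits Ctsl, Kitl, Gper1 and Psmb11.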
